A study of Oryza sativa with 6 samples.

Results

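The third day of water deficiency (WD) was compared with the second in roots of rice (Oryza sativa), as the ratio of the pooled expression value of each gene after 3 d to that after 2 d. The comparison uses 4 of the 6 libraries of the study, 2 from plants exposed to WD for 2 d and 2 from plants exposed to WD for 3 d, and the 2 libraries of untreated control plants are given beside them. All plants were 4-week-old japonica seedlings of the cultivar Chilbo grown in soil, and WD was imposed by withholding irrigation. RNA came from whole roots, so each value mixes all root cell types, and the labels do not say whether the libraries of a group came from separate pots. The comparison asks how the root transcriptome differed between an earlier and a later day of drying. The groups are separate samples, so a difference in plant age or harvest day cannot be told apart from the further day of drying. The labels give no harvest day for the control.

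Roots in drying soil slow their elongation as turgor falls, and keep water by accumulating solutes and by stiffening or sealing their walls. Wall growth needs cellulose, which is spun by cellulose synthase complexes in the plasma membrane, and secreted enzymes such as class III peroxidases and glycosyl hydrolases loosen or cross-link the wall. Cells under drought also handle more reactive oxygen, toxic aldehydes and freed metal ions, and metallothioneins, ferritins and glyoxalases act on these.

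The values are FPKM, fragments scaled to transcript length and to the number of mapped fragments, and each group has a single value per entry that the authors pooled over its libraries. No spread between libraries, interval or test can therefore be given for any difference, and the depth is unknown. "Higher" and "lower" at 3 d mean an FPKM over 4 on both days and a log2 ratio of 3 d to 2 d over 1 or under -1, which is a 2-fold difference. Of 63985 entries, 12345 were over 4 FPKM on both days. Locus names are less reliable along parts of the genome. Among expressed entries that name a locus, 6.92% share that name with another entry below a limit set on each of 7 chromosomes, against 49.2% beyond the limits on the same chromosomes and 46.8% on the other chromosomes. Genes are named here only from below the limits, which are 10.1 Mb on chromosome 1, 6.0 Mb on chromosome 2, 4.9 Mb on chromosome 3, 7.4 Mb on chromosome 5, 11.1 Mb on chromosome 6, 11.4 Mb on chromosome 8 and 5.1 Mb on chromosome 12, and only from entries that name 1 locus which no other entry names. These placed genes number 7606, of which 1687 were over 4 FPKM on both days, and 358 of the 1687 carry a functional description and are called annotated genes here. The descriptions cover genes that the study had called against control on these same libraries, so neither the annotated genes nor the lists drawn from them are independent evidence of a direction. The root label was not checked against cell type markers here.

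Most genes stood at nearly the same level on both days, and among the placed genes past the limits more were lower than higher at 3 d. Of the 1687 placed genes, 67 were lower (3.97%) and 31 were higher (1.84%). Over all 12345 entries, 420 were lower (3.40%) and 289 were higher (2.34%). The median log2 ratio of the placed genes was 0.05, 73.3% of them lay within 0.5 of 0, and the extremes of the 1687 were -2.28 and 1.74. Among the annotated genes 40 were lower (11.2%) and 10 were higher (2.79%), with a median log2 ratio of -0.10. Of the 40 lower, 10 higher and 308 other annotated genes, 0 were at 4 FPKM or less in control. Genes that stood low in control are thus absent from the annotated genes and the lists drawn from them. Among the placed genes 35.5% of the higher and 8.96% of the lower were at 4 FPKM or less in control, so this absence touches higher calls more. Shares over the annotated genes cover genes called against control and are not those of all genes. In bulk roots, fewer cells of a type and less RNA per cell cannot be told apart.

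The balance of higher and lower calls moved with the scaling and with the limits. As deposited, higher calls made up 31.6% of the calls among placed genes and 40.8% among all entries. With the FPKM sums of the 2 days made equal, leaving out the 2 entries of highest FPKM, which shifts every log2 ratio by -0.10, the shares were 17.0% and 26.0%, and with the ratios centred on their median of 0.06 they were 21.8% and 30.9%. Above 10 FPKM on both days, 23 placed genes were higher and 28 lower, and with a log2 limit of 0.5 the counts were 228 and 223. By the geometric mean of the FPKM on the 2 days, 6 were higher and 19 lower among the 443 placed genes at 4 to 10 FPKM, 15 and 35 among the 688 at 10 to 30, 7 and 10 among the 436 at 30 to 100, and 3 and 3 among the 120 above 100 FPKM.

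**Figure D1:**
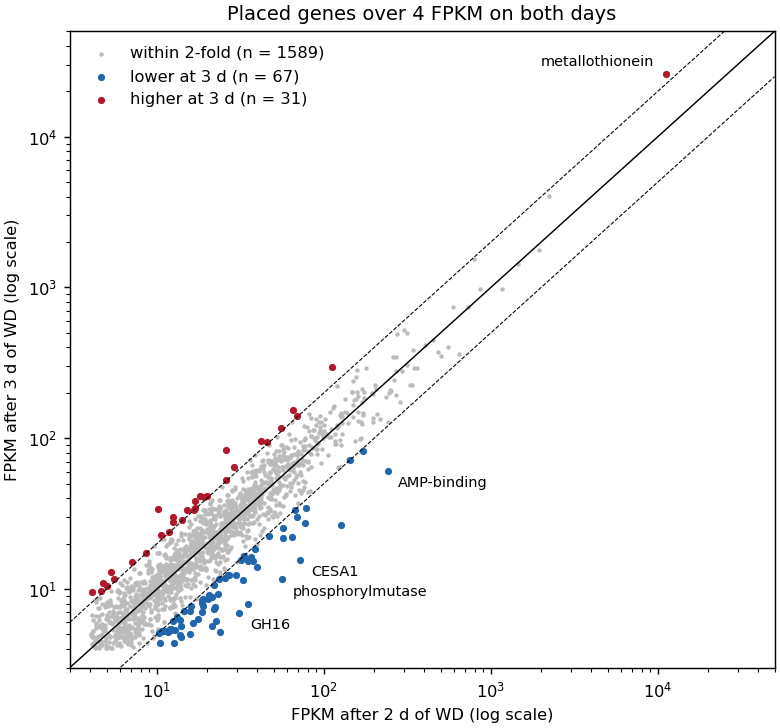
FPKM of the 1687 placed genes after 2 d of WD (horizontal axis) and 3 d of WD (vertical axis), both on log scales, 1 pooled value per group. The solid line marks equal values and the dashed lines a 2-fold difference; 67 genes lie below the lower dashed line (blue) and 31 above the upper one (red), and the metallothionein gene stands alone at the top right.

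Levels in control plants place these groups further. The 67 placed genes lower at 3 d had median values of 26.5 FPKM in control, 22.1 at 2 d and 8.49 at 3 d. The 31 higher genes had medians of 13.2 FPKM in control, 16.6 at 2 d and 34.0 at 3 d, and 11 of them were at 4 FPKM or less in control, against 6 of the 67 lower genes and 134 of the 1589 within 2-fold. The value after 2 d enters both steps of each series.

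Genes of the cell wall included some of the lowest ratios. CESA1 (LOC_Os05g08370, chromosome 5, 4565177 to 4571461), a catalytic subunit of the complex that makes primary wall cellulose, stood at 177 FPKM in control, 72.1 at 2 d and 15.6 at 3 d. Its level after 3 d was 4.63-fold lower than after 2 d, a log2 ratio of -2.21. A glycosyl hydrolase of family 16 (LOC_Os08g13920, chromosome 8, 8326881 to 8329399), a family whose plant members cut and rejoin wall xyloglucan, had 106 FPKM in control, 31.1 at 2 d and 6.93 at 3 d, a log2 ratio of -2.17. Caffeoyl-CoA O-methyltransferase (LOC_Os06g06980), which methylates lignin precursors, had 19.0 FPKM in control, 17.5 at 2 d and 6.31 at 3 d, a log2 ratio of -1.48. In this gene the control and 2 d values were close, and the 3 d value stood apart.

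Of the 9 members of the cell wall and lignin list over the limit, 3 were lower and 0 were higher at 3 d, against 11.2% lower and 2.79% higher over the annotated genes. The list had a median log2 ratio of -0.42, against 0.05 over the placed genes and -0.10 over the annotated genes. Another 3 members were over 4 FPKM after 2 d and under it after 3 d. CSLF6 (LOC_Os08g06380), the synthase of the mixed-linkage glucan of grass walls, was at 57.5 FPKM in control, 8.90 at 2 d and 1.75 at 3 d. A glycosyltransferase of family 43 (LOC_Os05g03174), a family that builds xylan, was at 20.8 FPKM in control, 4.91 at 2 d and 1.17 at 3 d. A beta-galactosidase (LOC_Os03g06940) was at 26.5, 6.24 and 2.19 FPKM in the same order. Not every wall gene stood lower at 3 d. A 1,3-beta-glucan (callose) synthase (LOC_Os03g03610) was at 82.1 FPKM in control, 149 at 2 d and 238 at 3 d, a log2 ratio of 0.68. A glycine-rich wall protein (LOC_Os03g07270) was at 6.37, 17.5 and 30.3 FPKM, a log2 ratio of 0.79. CSLD2 (LOC_Os06g02180), at 34.7, 20.9 and 15.6 FPKM, was within the limits at -0.42.

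Genes annotated as peroxidase precursors, the usual label of secreted class III enzymes that use hydrogen peroxide in the wall, had 5 placed members in the redox list. Only 2 of them were over 4 FPKM on both days, and both were lower at 3 d. Of the 212 members of any list over 4 FPKM on both days, 116 were below 0, and 11.2% of the annotated genes were lower. These shares leave out genes past 4 FPKM on 1 day only. LOC_Os01g15830 had 358 FPKM in control, 56.5 at 2 d and 21.9 at 3 d, a log2 ratio of -1.36, and LOC_Os03g02920 had 35.3, 21.3 and 5.69 FPKM, a log2 ratio of -1.90. The other 3 peroxidase genes passed 4 FPKM after 2 d only, so they could only be lower at 3 d and add no evidence of a direction. LOC_Os05g04380 was at 83.2 FPKM in control, 8.34 at 2 d and 1.79 at 3 d, LOC_Os05g04500 at 45.2, 8.04 and 0.548 FPKM, and LOC_Os05g06970 at 159, 4.53 and 1.59 FPKM. The highest of the 5 values after 3 d was thus 21.9 FPKM, while all 5 had been above 35 FPKM in control. How reads shared between members of such families were counted is not given in the sources used here, so the split between close copies is uncertain.

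The redox, detoxification and metal binding list as a whole was mixed, with 1 of 11 members higher and 3 lower, set beside 2.79% higher and 11.2% lower over the annotated genes, and a median log2 ratio of -0.05. Besides the peroxidases its lower members held an NADPH-dependent FMN reductase (LOC_Os08g04460, chromosome 8, 2181862 to 2184807) at 21.5 FPKM in control, 35.2 at 2 d and 7.96 at 3 d, a log2 ratio of -2.14. Genes for removing methylglyoxal, aldehydes and hydrogen peroxide inside the cell were within 2-fold between the days. A glyoxalase (LOC_Os05g07940) was at 25.6 FPKM in control, 151 at 2 d and 179.8 at 3 d, an aldehyde dehydrogenase (LOC_Os02g07760) at 41.3, 346 and 291 FPKM, and catalase OsCAT1 (LOC_Os02g02400) at 153, 329 and 224 FPKM.

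Metal-binding proteins stood at the other end of the same list. A metallothionein gene (LOC_Os01g05650), which encodes a small cysteine-rich protein that binds zinc and copper, was at 402 FPKM in control, 11238 at 2 d and 26219.6 at 3 d. Its log2 ratio of 1.22, or 2.33-fold, was the highest of the annotated genes, and it ranked 1 among the placed genes in FPKM on both days. Its entry is listed on chromosome 1 from 2664482 to 2695085, coordinates that 9 other entries share, so this span need not be that of the gene. Ferritin-1 (LOC_Os12g01530), an iron store, was at 5.45 FPKM in control, 24.6 at 2 d and 47.4 at 3 d, a log2 ratio of 0.95, just under the limit. By contrast, the gene of a heavy-metal-associated domain protein (LOC_Os03g05750) was at 77.1, 15.8 and 5.04 FPKM, a log2 ratio of -1.65.

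Lipid genes were lower in 3 of 16 cases and higher in 0, against 11.2% lower and 2.79% higher over the annotated genes, with a median log2 ratio of -0.36 against -0.10. A GDSL lipase (LOC_Os06g06290), of a large family of secreted esterases, was at 159.9 FPKM in control, 23.7 at 2 d and 5.17 at 3 d, a log2 ratio of -2.19. A second GDSL gene (LOC_Os05g06720) was at 29.6, 13.4 and 2.29 FPKM, under the limit after 3 d, and its neighbour LOC_Os05g06710 at 33.2, 12.0 and 7.54 FPKM, a log2 ratio of -0.67. The further GDSL genes LOC_Os05g11910 and LOC_Os05g11950 had log2 ratios of -0.60 and -0.43. An AMP-binding domain gene (LOC_Os02g08100, chromosome 2, 4280494 to 4286006), from a superfamily that activates acids such as fatty acids with ATP, was at 277 FPKM in control, 240.5 at 2 d and 60.5 at 3 d, a log2 ratio of -1.99. Its control and 2 d levels were close, so nearly all of the difference from control lay between the second and the third day. An acyl-CoA binding protein gene (LOC_Os08g06550) was at 189, 36.6 and 16.3 FPKM, a log2 ratio of -1.17. The highest lipid ratios were 0.49 for an O-acyltransferase (LOC_Os05g10810) and 0.46 for a mitochondrial acyl-CoA dehydrogenase (LOC_Os05g03480), which acts in the breakdown of acyl chains and amino acids.

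**Figure D2:**
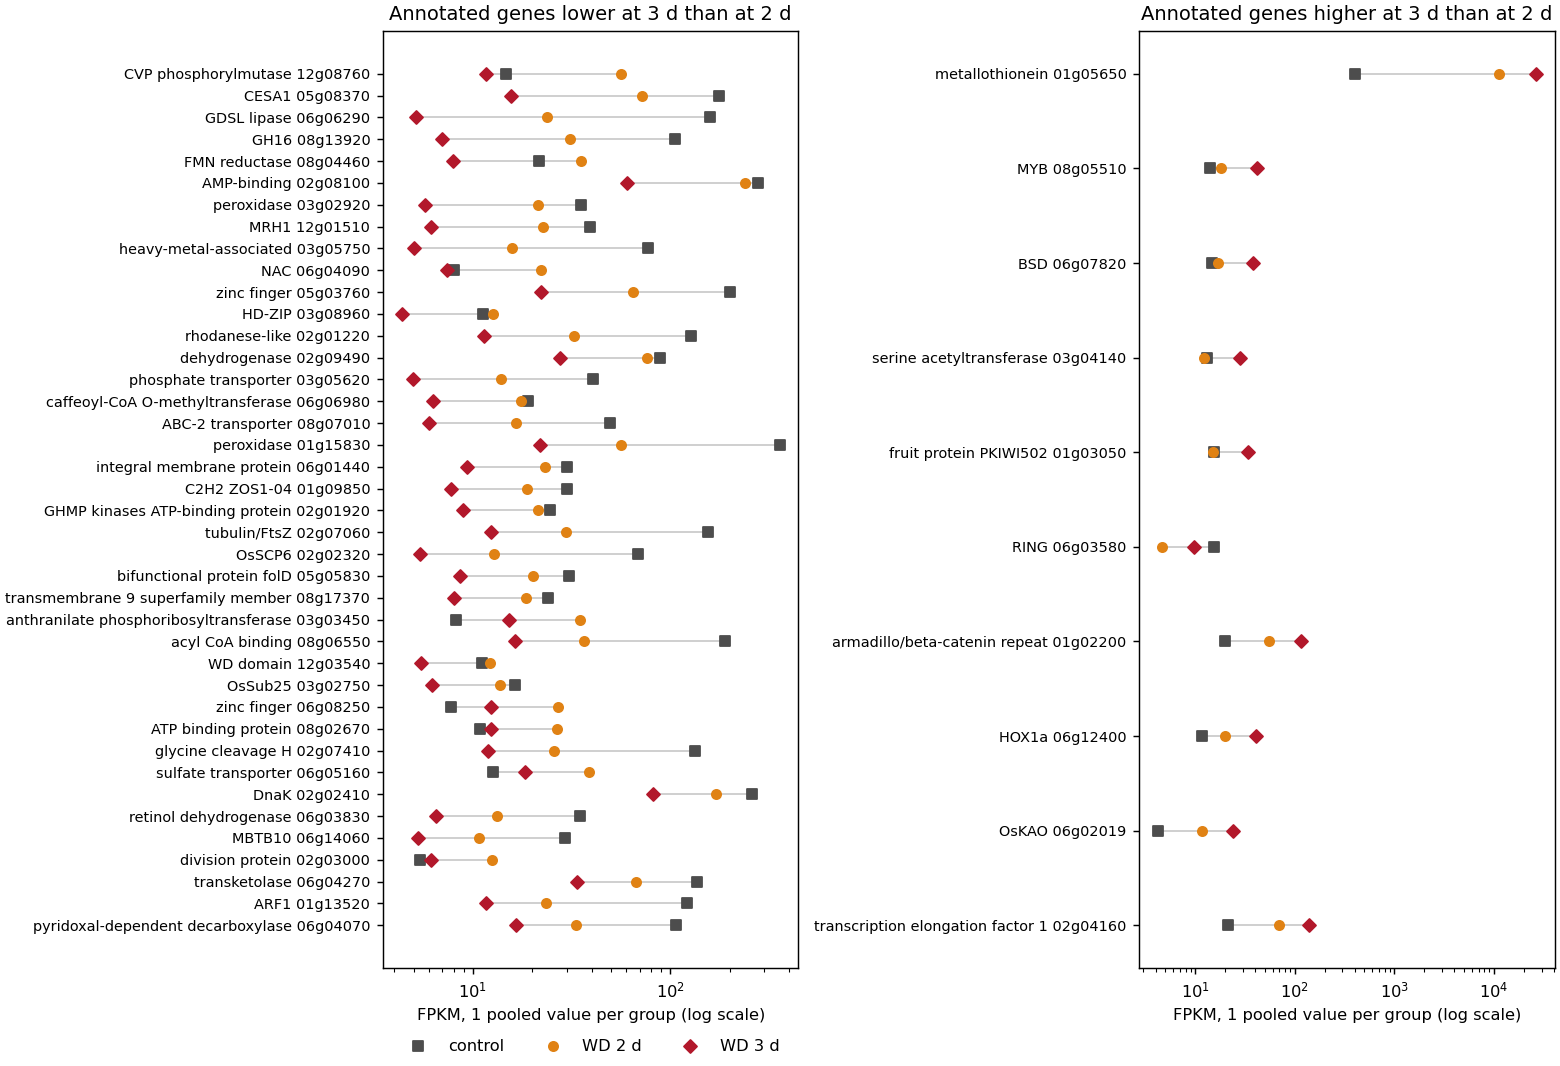
FPKM (log scale, 1 pooled value per group) in control, after 2 d and after 3 d of WD for the 40 annotated genes lower at 3 d than at 2 d (left) and the 10 higher (right), ordered by log2 ratio, each named with its locus number (CVP, carboxyvinyl-carboxyphosphonate). Grey lines span the 3 values of a gene; CESA1 moves from 72.1 to 15.6 FPKM and the metallothionein from 11238 to 26219.6 FPKM between the days.

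Some genes stood above control after 2 d and back near or toward it after 3 d. The lowest ratio of the placed genes over 4 FPKM on both days, -2.28, belonged to LOC_Os12g08760 (chromosome 12, 4486548 to 4503990), annotated as a carboxyvinyl-carboxyphosphonate phosphorylmutase, at 14.7 FPKM in control, 56.3 at 2 d and 11.6 at 3 d. A gene of the NAC family of transcription factors (LOC_Os06g04090) was at 8.06 FPKM in control, 22.0 at 2 d and 7.39 at 3 d, a log2 ratio of -1.57. In both genes the 2 d value alone stood apart. Anthranilate phosphoribosyltransferase (LOC_Os03g03450), an enzyme of tryptophan synthesis, was at 8.19, 34.9 and 15.3 FPKM, a log2 ratio of -1.19. A sulfate transporter gene (LOC_Os06g05160) was at 12.6, 38.8 and 18.3 FPKM, a log2 ratio of -1.09, and a second one (LOC_Os03g06520) at 9.13, 139 and 72.3 FPKM, a log2 ratio of -0.94. In the anthranilate and sulfate genes the 3 d value still lay above control.

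Transporter genes were lower in 3 of 18 cases and higher in 0, beside shares of 11.2% and 2.79% over the annotated genes, with a median log2 ratio of -0.39. Besides the sulfate transporter, an inorganic phosphate transporter gene (LOC_Os03g05620) was at 40.4 FPKM in control, 13.8 at 2 d and 4.94 at 3 d, a log2 ratio of -1.48. An ABC-2 type transporter gene (LOC_Os08g07010) was at 49.6, 16.5 and 5.99 FPKM, a log2 ratio of -1.46. A pair of neighbouring amino acid transporter genes on chromosome 12 passed 4 FPKM after 2 d only. LOC_Os12g08090 was at 22.5 FPKM in control, 4.58 at 2 d and 0.256 at 3 d, and LOC_Os12g08130 at 35.4, 6.20 and 0.501 FPKM. The metal transporter gene Nramp6 (LOC_Os02g03900) was at 177, 4.94 and 1.15 FPKM. An aquaporin gene (LOC_Os03g05290), which encodes a water channel, was at 306 FPKM in control, 196 at 2 d and 129 at 3 d, a log2 ratio of -0.60 and within the limits. The highest transporter ratios were 0.60 for a BT1 family gene (LOC_Os01g14100) and 0.50 for a metal cation transporter gene (LOC_Os05g07210), also within them.

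Transcription factor genes were lower in 4 of 24 cases and higher in 2, where 11.2% of the annotated genes were lower and 2.79% higher. Their median log2 ratio was -0.20. The lower ones, beside the NAC gene, were a homeobox leucine zipper gene (LOC_Os03g08960) at 11.3 FPKM in control, 12.7 at 2 d and 4.36 at 3 d, the C2H2 zinc finger gene ZOS1-04 (LOC_Os01g09850) at 29.8, 18.8 and 7.73 FPKM, and auxin response factor 1 (LOC_Os01g13520) at 122, 23.5 and 11.7 FPKM. Their log2 ratios were -1.54, -1.28 and -1.01. A MYB gene (LOC_Os08g05510, chromosome 8, 2933787 to 2940197) was higher at 3 d, at 14.2 FPKM in control, 18.0 at 2 d and 41.5 at 3 d, a log2 ratio of 1.20. The homeobox gene HOX1a (LOC_Os06g12400, chromosome 6, 6724384 to 6734446) was at 11.6, 19.9 and 41.1 FPKM, a log2 ratio of 1.04. Outside the lists, a zinc finger family gene (LOC_Os05g03760) was at 201, 64.6 and 22.0 FPKM, a log2 ratio of -1.56, and the gene of a transcription elongation factor 1 (LOC_Os02g04160) at 21.3, 69.4 and 139.6 FPKM, a log2 ratio of 1.01. With 1 added to each FPKM, auxin response factor 1 came to -0.95, and centred on the median HOX1a came to 0.98 and the elongation factor to 0.95, so these calls sit at the limit.

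Hormone genes were lower in 1 of 14 cases and higher in 1, against 11.2% lower and 2.79% higher over the annotated genes, with a median log2 ratio of -0.32. OsKAO (LOC_Os06g02019, chromosome 6, 579525 to 586450), the ent-kaurenoic acid oxidase of gibberellin synthesis, was at 4.23 FPKM in control, 11.8 at 2 d and 23.8 at 3 d. Its log2 ratio was 1.02, and 0.96 with 1 added or when centred on the median. GA2ox1 (LOC_Os05g11810), which inactivates gibberellins, was at 49.0, 35.8 and 22.2 FPKM, a log2 ratio of -0.69. On the auxin side, beside auxin response factor 1, the repressor gene OsIAA3 (LOC_Os01g13030) was at 49.7, 18.1 and 11.1 FPKM and OsGH3.3 (LOC_Os01g12160), which conjugates auxin to amino acids, at 23.1, 7.57 and 10.8 FPKM, with log2 ratios of -0.70 and 0.52. A phytosulfokine receptor gene (LOC_Os02g02490), whose ligand is a small growth peptide, lay just inside 2-fold at -0.98, with 22.5, 9.63 and 4.87 FPKM. Of the brassinosteroid receptor homologues, a BRI1-like gene (LOC_Os08g17410) was at 16.5, 5.51 and 2.04 FPKM and a BAK1-like gene (LOC_Os02g09359) at 31.1, 8.16 and 3.90 FPKM, both under the limit after 3 d. A second BAK1-like gene (LOC_Os06g16300) was over it on both days at 32.7, 23.8 and 15.1 FPKM, a log2 ratio of -0.66 and within 2-fold.

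Sugar and central carbon metabolism had a median log2 ratio of -0.39, with 12 of 15 members below 0, beside 116 of the 212 members of any list. Only transketolase (LOC_Os06g04270), an enzyme of the pentose phosphate pathway, was lower past the limit, 1 of 15 against 11.2% of the annotated genes. It was at 136 FPKM in control, 67.4 at 2 d and 33.5 at 3 d, a log2 ratio of -1.01 that came to -0.99 with 1 added. Enolase (LOC_Os06g04510), a glycolytic enzyme, was at 15.8, 243 and 128 FPKM, a log2 ratio of -0.92. Sucrose synthase (LOC_Os06g09450), which cleaves sucrose, was at 1461 FPKM in control, 335 at 2 d and 224 at 3 d, a log2 ratio of -0.58. The hexokinase genes LOC_Os01g09460 and LOC_Os05g09500, whose enzyme phosphorylates free hexoses, had log2 ratios of 0.63 and 0.44.

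Amino acid and nitrogen metabolism had 3 lower and 1 higher of 12 members, beside 11.2% and 2.79% over the annotated genes, and a median log2 ratio of -0.10, the same as theirs. Serine acetyltransferase (LOC_Os03g04140, chromosome 3, 1891833 to 1897309), which makes the precursor of cysteine from serine, was at 13.0 FPKM in control, 12.4 at 2 d and 28.0 at 3 d, a log2 ratio of 1.18. Control and 2 d were level in this gene and the 3 d value stood apart. Cysteine synthase (LOC_Os06g05700), which acts next in that pathway, was at 17.5, 5.33 and 3.70 FPKM and so under the limit after 3 d. Likewise under it after 3 d, an aminotransferase gene (LOC_Os08g10510) was at 39.3, 6.76 and 1.23 FPKM, a log2 ratio of -2.46. Methionine S-methyltransferase (LOC_Os05g01470) was at 51.4, 6.30 and 2.85 FPKM, a log2 ratio of -1.15. These genes are not among the 12. The glycine cleavage H protein gene (LOC_Os02g07410) was at 133, 25.7 and 11.9 FPKM, and a pyridoxal-dependent decarboxylase gene (LOC_Os06g04070) at 107, 33.2 and 16.6 FPKM, the first with a log2 ratio of -1.11 and the second just past -1, or -0.96 with 1 added. Homogentisate dioxygenase (LOC_Os06g01360), of tyrosine breakdown, was at 16.1, 53.9 and 82.6 FPKM, a log2 ratio of 0.62.

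RNA processing genes were the list with the highest median log2 ratio, 0.46, and 16 of its 17 members were above 0, or 15 with the ratios centred or with equal sums. Of the 212 members of any list, 96 were above 0, or 91 when centred and 87 with equal sums. These 212 mix genes above and below control. The RNA processing members, apart from LOC_Os02g05330 and LOC_Os02g03040, stood above control on both days. The lists came from genes called against control, and a choice made on high 3 d values favours ratios above 0. The 16 of 17 is thus no independent evidence of a direction. In the RNA processing list 0 passed the limits in either direction, against 11.2% lower and 2.79% higher over the annotated genes. Core spliceosome genes had more FPKM at 3 d than at 2 d, with PRP8 (LOC_Os05g07050) at 36.4 FPKM in control, 63.8 at 2 d and 77.5 at 3 d, the U5 helicase (LOC_Os02g01740) at 31.1, 48.1 and 71.0 FPKM, and SF3B1 (LOC_Os02g05310) at 29.2, 56.2 and 64.9 FPKM. Their log2 ratios of 3 d to 2 d were 0.28, 0.56 and 0.21. An RNA-binding motif protein gene (LOC_Os06g07350) was at 133, 157 and 284 FPKM, a log2 ratio of 0.85, and an RRM gene (LOC_Os03g04520) at 18.2, 34.7 and 59.9 FPKM, a log2 ratio of 0.79. Another RRM gene (LOC_Os02g03040) was at 99.2, 35.4 and 35.6 FPKM, level between the days at 0.01 and at -0.06 when centred. The single member below 0 as deposited was a DEAD-box helicase gene (LOC_Os02g05330) at 91.3, 59.5 and 42.1 FPKM, a log2 ratio of -0.50, whose listed coordinates 50 other entries share. The entry of SF3B1 has these same coordinates, so the limit holds for it as well. The list median was 0.40 with ratios centred on the median and 0.36 with equal sums.

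**Figure D3:**
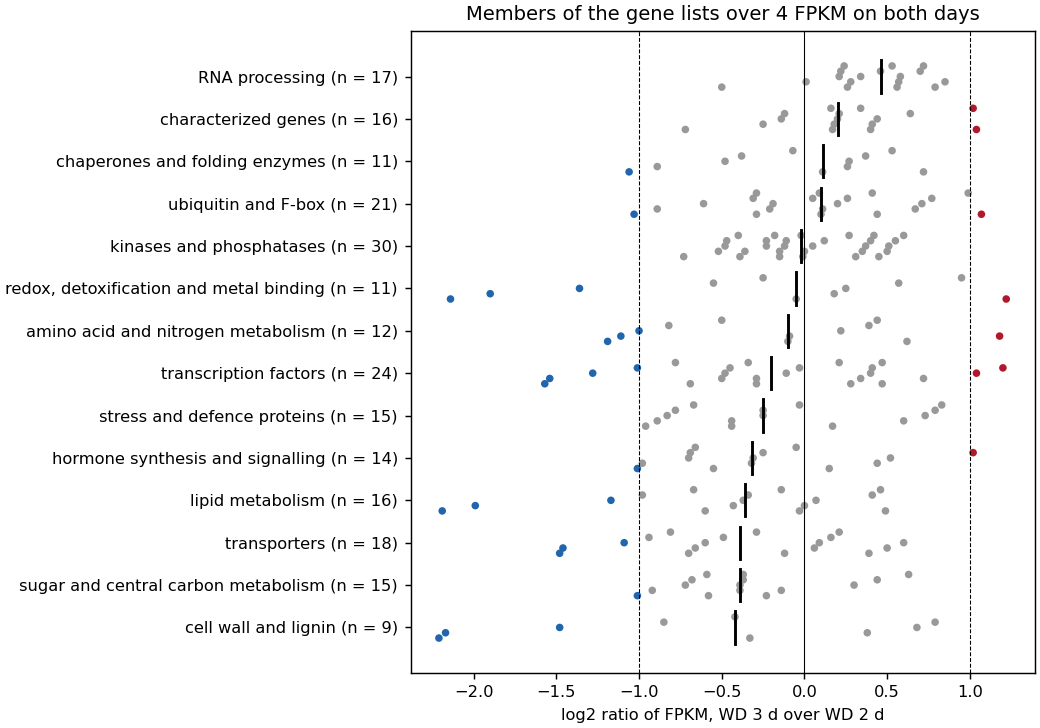
Log2 ratio of FPKM after 3 d to 2 d of WD for each member of the 14 gene lists over 4 FPKM on both days; black bars are list medians, dashed lines a 2-fold difference, blue points lower and red points higher at 3 d. The medians run from -0.42 for the cell wall and lignin list to 0.46 for the RNA processing list.

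Kinase and phosphatase genes, which relay signals by adding or removing phosphate, were close to level between the days where they were over 4 FPKM on both. Of 30 members 0 passed the limits, against 11.2% lower and 2.79% higher over the annotated genes. The log2 ratios ran from -0.73 to 0.60 with a median of -0.02. The lowest and highest were both protein kinase genes, LOC_Os03g03880 at 7.01 at 2 d and 4.23 at 3 d, and LOC_Os01g02390 at 8.79 and 13.3 FPKM. Next to them came a CBS domain gene (LOC_Os03g03430) at 96.2 FPKM in control, 19.7 at 2 d and 13.7 at 3 d, a log2 ratio of -0.52, and a PP2C phosphatase gene (LOC_Os05g04360), of a family that includes repressors of abscisic acid signalling, at 36.4, 50.6 and 73.9 FPKM, a log2 ratio of 0.55. Some kinase genes passed 4 FPKM after 2 d only and are not in that range. APK1B (LOC_Os03g08170) was at 18.0, 6.68 and 1.55 FPKM, a log2 ratio of -2.11. A serine/threonine kinase gene (LOC_Os12g01740) was at 15.6, 6.71 and 2.26 FPKM, a log2 ratio of -1.57. A receptor-like kinase 5 gene (LOC_Os01g13800) was at 17.7, 4.16 and 3.78 FPKM, a log2 ratio of -0.14. Of 11 chaperone and folding genes 1 was lower and 0 higher, against 11.2% lower and 2.79% higher over the annotated genes. The lower one was a DnaK (HSP70) family gene (LOC_Os02g02410) at 259 FPKM in control, 171 at 2 d and 81.9 at 3 d, a log2 ratio of -1.06. Another DnaK family gene (LOC_Os03g02260) was at 22.2, 95.0 and 114 FPKM, a log2 ratio of 0.26. Genes for peptidyl-prolyl isomerases, which help proteins fold, lay toward both ends of the list, CYP40 (LOC_Os06g11320) at 29.8, 10.1 and 5.45 FPKM with a log2 ratio of -0.89 and LOC_Os02g10970 at 35.4, 83.2 and 137 FPKM with 0.72. An activator homologue of the HSP90 ATPase (LOC_Os02g04650) had a log2 ratio of 0.53. The list median was 0.11.

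Among 21 ubiquitin and F-box genes 1 was higher and 1 lower, beside 2.79% and 11.2% over the annotated genes, with a median log2 ratio of 0.10 that became -0.00 with equal sums. A RING finger gene (LOC_Os06g03580), of the class that includes many ubiquitin ligases, was at 15.5 FPKM in control, 4.63 at 2 d and 9.75 at 3 d, a log2 ratio of 1.07 that came to 0.93 with 1 added. This gene was lowest on the second day and still below control on the third. MBTB10 (LOC_Os06g14060), of a family of substrate adaptors, was at 29.4, 10.7 and 5.26 FPKM, a log2 ratio of -1.03, or -0.90 with 1 added. A second RING gene (LOC_Os05g01940) was within the limits at 48.6, 21.7 and 11.7 FPKM, a log2 ratio of -0.89. The F-box gene OsFBDUF1 (LOC_Os01g08830) lay just inside the limit at 0.99, with 35.2, 36.1 and 71.5 FPKM.

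Of 15 stress and defence protein genes 0 passed the limits, against 11.2% lower and 2.79% higher over the annotated genes, and their median log2 ratio was -0.25. Bowman-Birk trypsin inhibitor genes, neighbours on chromosome 1, stood in opposite order on the days. BBTI4 (LOC_Os01g03340) was at 25.2 FPKM in control, 549.8 at 2 d and 405 at 3 d, a log2 ratio of -0.44, and BBTI5 (LOC_Os01g03360) at 5.45, 301 and 519 FPKM, a log2 ratio of 0.79. The entries of BBTI4 and BBTI5 have the same listed coordinates, which each shares with 4 others. Reads of such similar genes may be split between them, so the opposite order is uncertain. An annexin gene (LOC_Os06g11800), for a calcium-dependent membrane-binding protein, was at 50.5, 81.8 and 145 FPKM, a log2 ratio of 0.83. The lipid transfer protein gene LTPL104 (LOC_Os05g06780) was at 602, 125 and 64.2 FPKM and a caleosin gene (LOC_Os06g14370) at 142, 82.6 and 44.5 FPKM, with log2 ratios of -0.96 and -0.89. A remorin gene (LOC_Os03g02040), for a protein of plasma membrane domains, was at 79.3 FPKM in control, 9.67 at 2 d and 0.640 at 3 d and so passed 4 FPKM after 2 d only.

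The 16 functionally characterized placed genes, which the study took from its genes called up after 3 d against control, had a median log2 ratio of 0.20 between the days, and 2 of them, HOX1a and OsKAO, were higher at 3 d while 0 were lower. Over the annotated genes 2.79% were higher and 11.2% lower, but a choice made on high 3 d values favours ratios above 0. Centred on the median, HOX1a came to 0.98 and OsKAO to 0.96, under the limit. For the other 14 the level at 3 d was within 2-fold of that at 2 d. Those tied to stress tolerance included OsTZF1 (LOC_Os05g10670), a tandem CCCH zinc finger protein, with a log2 ratio of 0.21, OsPLDalpha1 (LOC_Os01g07760), a phospholipase D that releases phosphatidic acid, at 117 FPKM in control, 258 at 2 d and 343 at 3 d, and OsGLYI-11.2 (LOC_Os08g09250), a glyoxalase I, at 188, 859 and 971 FPKM. OsGAPC3 (LOC_Os08g03290), a cytosolic glyceraldehyde-3-phosphate dehydrogenase, was at 399.7, 1949 and 1767 FPKM. OsLti6b (LOC_Os05g04700), a small hydrophobic membrane protein, was at 196, 1163 and 980.3 FPKM. That these genes stood above control at 3 d follows from how they were chosen. They were also above control at 2 d, and close together between the days.

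Metal transport genes among them were also nearly level. OsMTP1 (LOC_Os05g03780), a metal tolerance protein of the cation efflux family, was at 37.9 FPKM in control, 161 at 2 d and 149 at 3 d, and the zinc transporter OsZIP4 (LOC_Os08g10630) had a log2 ratio of 0.16. The largest ratio below 0 was that of RINO1 (LOC_Os03g09250), the inositol-3-phosphate synthase that begins inositol synthesis, at 39.6, 166 and 101 FPKM, a log2 ratio of -0.72. Of the senescence-linked genes, NYC1 (LOC_Os01g12710), which acts in chlorophyll b breakdown, was at 13.5, 20.1 and 31.3 FPKM and OsDOS (LOC_Os01g09620), a CCCH protein, at 17.7, 85.7 and 113 FPKM, with log2 ratios of 0.64 and 0.40. D3 (LOC_Os06g06050), the F-box protein of strigolactone signalling, had a log2 ratio of 0.44. ONAC131 (LOC_Os12g03040), a NAC factor, was at 5.25, 10.8 and 13.6 FPKM, AIP1 (LOC_Os01g03510), an actin-interacting protein, at 21.2, 48.2 and 54.4 FPKM, and PTB1 (LOC_Os05g05280), a RING-type protein of pollen tube growth, at 19.4, 44.7 and 51.1 FPKM.

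**Figure D4:**
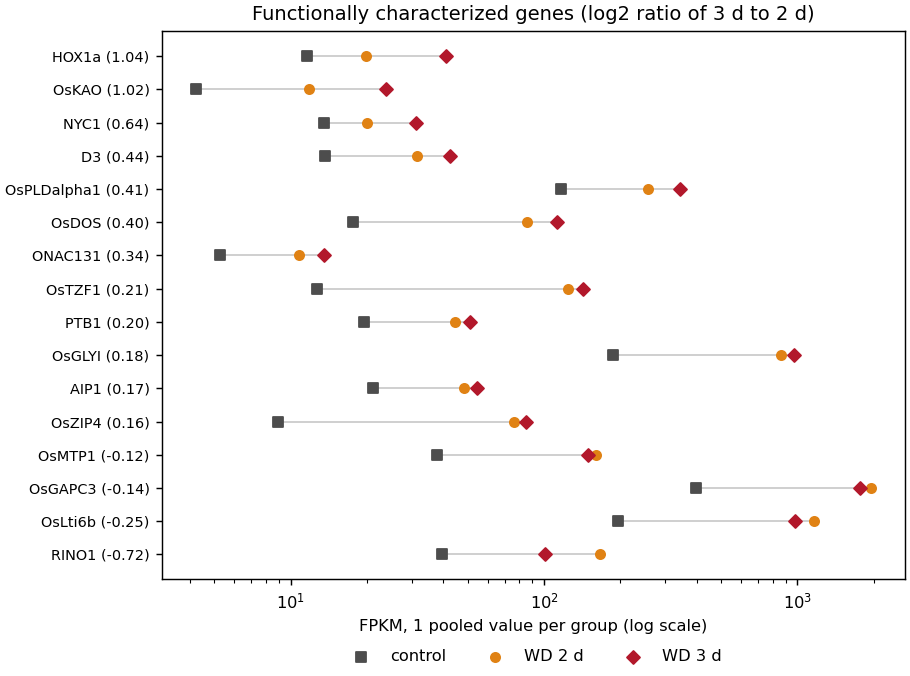
FPKM (log scale, 1 pooled value per group) in control, after 2 d and after 3 d of WD for the 16 functionally characterized genes, with the log2 ratio of 3 d to 2 d in brackets. The ratios run from -0.72 for RINO1 to 1.04 for HOX1a, and the 2 d and 3 d points lie close together for most genes.

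Other annotated genes outside the lists completed both ends. Higher at 3 d were a BSD domain gene (LOC_Os06g07820) at 14.9 FPKM in control, 16.9 at 2 d and 38.5 at 3 d, a gene annotated as fruit protein PKIWI502 (LOC_Os01g03050) at 15.4, 15.1 and 33.6 FPKM, and an armadillo repeat gene (LOC_Os01g02200) at 19.7, 55.2 and 116 FPKM, with log2 ratios of 1.18, 1.15 and 1.07. In the BSD domain and PKIWI502 genes the control and 2 d values were close. A NIN gene (LOC_Os03g03900), a name taken from a nodulation regulator of legumes, was at 46.9, 21.3 and 38.7 FPKM, a log2 ratio of 0.86. Lower at 3 d were MRH1 (LOC_Os12g01510), named after a root hair gene of Arabidopsis, at 39.1, 22.6 and 6.10 FPKM, a rhodanese-like gene (LOC_Os02g01220) at 128, 32.6 and 11.4 FPKM, and a dehydrogenase gene (LOC_Os02g09490) at 88.4, 76.6 and 27.5 FPKM, with log2 ratios of -1.89, -1.52 and -1.48. The dehydrogenase, like the AMP-binding gene, was nearly level between control and 2 d.

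Placed genes with no functional description held the 5 highest ratios among those over 4 FPKM on both days. LOC_Os03g08580 was at 1.56 FPKM in control, 10.2 at 2 d and 34.0 at 3 d, a log2 ratio of 1.74, and LOC_Os03g02590 was at 1.08, 25.9 and 83.4 FPKM, a log2 ratio of 1.69. LOC_Os05g05060, annotated only as an expressed protein, was at 4.81, 112 and 298 FPKM, a log2 ratio of 1.41. LOC_Os02g04230 was at 2.97 FPKM in control, 5.34 at 2 d and 13.0 at 3 d, a log2 ratio of 1.28, and LOC_Os02g07960 at 19.6, 12.5 and 30.2 FPKM, a log2 ratio of 1.27. At the lower end LOC_Os05g02070, likewise an expressed protein, was at 299, 127 and 26.4 FPKM, a log2 ratio of -2.27. Of the 5 with the highest ratios all but LOC_Os02g07960 stood above control on both days, and LOC_Os05g02070 stood below it on both.

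Genes past 4 FPKM on only one of the days were left out of these counts. With a ratio past the limit, 66 placed genes were over 4 FPKM after 2 d only, 27 of them annotated, and 23 were so after 3 d only, 0 of them annotated. Of the 1687 placed genes over 4 FPKM on both days, 358 were annotated. Genes at 4 FPKM or less in control are absent from those 358, so the 27 and 0 are no measure of a difference between the days. Of the 66, the highest after 2 d were LOC_Os08g04560, without a description, at 0.0653 FPKM in control, 14.7 at 2 d and 3.97 at 3 d, the GDSL gene LOC_Os05g06720, and a soluble inorganic pyrophosphatase gene (LOC_Os05g02310) at 45.1, 12.8 and 1.43 FPKM. A xylem cysteine proteinase 2 gene (LOC_Os05g01810), a family active in the maturing of water-conducting cells, was at 63.2, 6.23 and 0.538 FPKM. Of the 23, LOC_Os03g03840 was listed at 0 in control and after 2 d and at 14.0 FPKM after 3 d, LOC_Os03g06400 was at 0.940, 3.79 and 13.5 FPKM, and LOC_Os03g08834 at 0.0418, 1.55 and 13.3 FPKM. Values this low carry a large counting error that cannot be given without the depth.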

How the data were processed

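Root RNA was sequenced as paired-end reads. According to the methods and the submitters' processing notes, the authors checked reads with FastQC, trimmed them with cutadapt and Trim Galore, mapped them with TopHat to IRGSP 1.0, took genes from the RGAP annotation and ran Cuffdiff. Versions were not given in the sources used here, nor was the scaling of libraries. The deposited FPKM hold 1 pooled value per group and entry, so depth is unknown and no test was made. The authors' columns of fold change, test statistic, p-value and q-value were not used.

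Log2 ratios were computed from the FPKM with no pseudocount, in Python 3.11.15 with pandas 2.3.3, numpy 2.4.6 and matplotlib 3.10.9; the code was tested on simulated data. The limits are those of the study without its p. Listed starts count from 0, and 1 was added. The 14 lists hold 279 loci, of which 234 are placed and 212 were over 4 FPKM on both days. Members, lists and limits were chosen with earlier results of these data known. The text names all characterized genes, the 15 highest and 15 lowest annotated ratios, the 2 highest and 2 lowest of each list, the 5 highest and 5 lowest placed genes, and the 3 of highest FPKM past 4 on one day only. Other genes were named after their values were seen, to fill out families and pathways. Sequences, GO terms and reporter or mutant experiments were not analysed here.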

Additional observations from a re-analysis of the deposited data

How the results depend on the processing

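Counts are given as higher and lower at 3 d. Over all entries, against 289 and 420, they were 488 and 972 with FPKM over 4 in at least 1 group, 554 and 1073 with FPKM over 1 in both, 179 and 194 with FPKM over 10 in both, 2490 and 3937 with no FPKM limit, 1791 and 1612 with a log2 limit of 0.5, 9 and 28 with a log2 limit of 2, 107 and 178 for entries naming a single unshared locus, and 45 and 87 for entries below the chromosome limits. With equal sums 187 and 533 were called. For placed genes, against 31 and 67, the first 6 of these settings gave, in the same order, 54 and 133, 54 and 142, 23 and 28, 275 and 523, 228 and 223, and 0 and 6, and equal sums gave 17 and 83. For list members, against 6 and 22, 36 were lower with FPKM over 1, 11 lower with FPKM over 10, and 39 and 57 passed a log2 limit of 0.5. All of these except equal sums alter by construction which entries are able to pass. Chosen after seeing the data, entries with unshared coordinates gave 98 and 211 over all entries and 15 and 49 among placed genes; the metallothionein gene is not among them. Pseudocounts of 0.1 and 1 and centring kept the counts within 1.5 times. Over all entries and over placed genes, more were lower than higher under every setting named here except the log2 limit of 0.5.

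Of the 107 named genes over 4 FPKM on both days, 7 lost their call with 1 added, and 3 lost and 3 gained it when centred. The single change of sign under these settings was that of LOC_Os02g03040, within the limits at 0.01 and at -0.06 when centred. No paired analysis was possible because the deposited columns hold pooled values without replicate numbers, and leaving out replicates was not run for the same reason. The unknown depth limits every low value.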
